A study of Mus musculus with 20 samples.

Results

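The genes described here are 8 reported Y RNA-binding proteins, Ro60, Ssb, Ptbp1, Hnrnpk, Ybx1, Ybx3, Matr3 and Mov10. They were chosen by gene name from the literature on Y RNA-protein complexes, with earlier results of these data already known. They make up 8 of the 78409 genes in the count table. All 8 were found under their own name and all 8 were tested in each of the 9 comparisons. The study asked how bronchoalveolar lavage fluid (BALF) of mice with or without the Y RNA gene RNY1 acts on macrophages, with RNA of BMDMs read by 3′ end poly(A) sequencing. BALF came from RNY1+/+ and RNY1-/- mice with ovalbumin-induced airway inflammation and was separated into an extracellular vesicle fraction (EV_Fx_) and a protein fraction (Protein_Fx_).

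Every one of the 20 libraries came from BMDMs of wild type C57BL/6J female mice, taken on day 7 of culture, and the labels state no age for the mice. The 5 groups of 4 libraries differed only in what was added to these wild type cells. The PBS group received PBS alone. The RNY1+/+ EV_Fx_ group received the vesicle fraction of BALF from RNY1+/+ mice with ovalbumin-induced inflammation, and the RNY1-/- EV_Fx_ group that from RNY1-/- mice with the same inflammation. Both vesicle fractions were matched at 35000000 particles per µL. The RNY1+/+ Protein_Fx_ and RNY1-/- Protein_Fx_ groups received the protein fraction of the same RNY1+/+ and RNY1-/- BALF, matched at 0.75 µg of protein per µL. The genotype in each group name is thus that of the BALF donor, never that of the BMDMs. Nothing in the labels says whether the 4 replicates of a group came from separate mice, pools or wells, so the p-values measure only the spread between these samples.

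Y RNAs are short noncoding RNAs made by RNA polymerase III that fold into a stem and a loop. Ro60 binds the stem, La (the product of Ssb) binds the run of uridines at the 3′ end, and a changing set of other RNA-binding proteins contacts the loop. The measurements here are of the mRNAs of these proteins in the recipient macrophages, not of the proteins or of the Y RNAs they bind.

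Macrophage markers were present in all 20 libraries: 8 of 8 lay above 3 counts in every group, and their summed level was 8173 to 11945 normalized CPM, with Lyz2 the most abundant. Among these, Adgre1 averaged 794 normalized CPM in PBS, 2842 in RNY1+/+ EV_Fx_, 3454 in RNY1-/- EV_Fx_, 3020 in RNY1+/+ Protein_Fx_ and 2332 in RNY1-/- Protein_Fx_. Adgre1 rose after every fraction (log2 fold change 1.86, 2.14, 1.96 and 1.57, each called by the test defined below), whereas Lyz2 fell after every fraction (−0.59, −0.64, −0.67 and −0.60, each called). Cd68 fell after all but RNY1-/- Protein_Fx_ (−0.51, −0.84 and −0.70, called), where it read −0.42 (not called). Mertk and Itgam fell in RNY1+/+ EV_Fx_ (−0.75 and −0.71) and rose in RNY1+/+ Protein_Fx_ (0.51 and 1.49), so the markers did not all move the same way. Neutrophil markers summed to 166 to 352 normalized CPM, with S100a8 the most abundant and Mpo, Elane and Ly6g (3 of 9) never above 3 counts. Eosinophil markers summed to 0.827 to 21.3. Of these 5, Ccr3 was the most abundant, with group means of 7.81 in PBS, 0.944 in RNY1+/+ EV_Fx_, 1.61 in RNY1-/- EV_Fx_, 16.1 in RNY1+/+ Protein_Fx_ and 12.4 in RNY1-/- Protein_Fx_, and Prg2, Epx and Ear6 never passed 3 counts. T cell markers summed to 0.259 to 8.86, mostly Cd4, and 6 of 7 never passed 3 counts. B cell markers reached 3.49 (mostly Cd79b, 3 of 5 never above 3 counts) and dendritic cell markers 0.789 (mostly Zbtb46, 5 of 5 never above). Fibroblast markers summed to 11 to 47.9, with Col1a2 highest and 0 of 5 always below 3 counts. Airway epithelium markers summed to 5.46 to 32.6, with Krt18 highest, and 4 of 8, the surfactant and secretoglobin genes, never passed 3 counts.

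Markers of other cell types also moved with treatment where they could be tested. Against PBS, 5 of 11 were called in RNY1+/+ EV_Fx_, all lower, and 5 of 11 in RNY1-/- EV_Fx_, all lower. In RNY1+/+ Protein_Fx_ 1 was higher and 1 lower of 9, and in RNY1-/- Protein_Fx_ 1 of 10 was lower. Col3a1 was lower than PBS after every fraction (−0.92, −1.91, −1.21 and −1.22 log2). For RNY1-/- EV_Fx_ against RNY1+/+ EV_Fx_, 6 of 7 were called: Krt8 (1.13), Krt18 (0.94), S100a8 (0.58) and S100a9 (0.52) were higher, and Col1a1 (−0.84) and Csf3r (−0.80) lower. All 6 of 9 called for RNY1+/+ Protein_Fx_ against RNY1+/+ EV_Fx_ were higher, Ccr3 by 4.06, and Krt8 (−1.76) and Krt18 (−1.50) were called in the genotype by fraction test. For RNY1-/- Protein_Fx_ against RNY1-/- EV_Fx_, 2 of 8 were called, both higher, Ccr3 (2.95) and Csf3r (1.11). Between the protein fractions 0 of 9 were called. The part of other cell types in the results was not tested. In bulk RNA, fewer cells of a type and less RNA per cell cannot be told apart.

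Each of the 20 libraries lay nearest to its own group, but PBS replicate 3 stood apart within its group and RNY1-/- Protein_Fx_ was split. PBS replicate 3 had a mean distance of 64.2 to the other PBS libraries, against 42.8 to 45.1 for the rest. In RNY1-/- Protein_Fx_, replicates 1 and 2 (25.9 apart) and replicates 3 and 4 (38.8 apart) formed 2 pairs that lay 49.2 to 60.4 from each other. PBS replicate 3 and the 2 pairs also differed from the rest of their groups in how level followed the GC content of the transcript. Scored as the mean log2 level of the 25% of genes with the highest GC minus that of the 25% with the lowest, the PBS libraries read 0.91, 0.96, −0.19 and 0.47. RNY1-/- Protein_Fx_ libraries read 0.01, 0.06, −0.72 and −0.58. The group means ± SD were 0.54 ± 0.53 in PBS, 0.43 ± 0.19 in RNY1+/+ EV_Fx_, −0.30 ± 0.12 in RNY1-/- EV_Fx_, −0.37 ± 0.12 in RNY1+/+ Protein_Fx_ and −0.31 ± 0.40 in RNY1-/- Protein_Fx_. Ribosomal protein genes made up 4.95% to 6.72% of counts in PBS and 2.45% to 4.22% in every other library. Mitochondrial genes made up 5.58% to 7.32% in PBS, 3.8% to 4.99% in RNY1+/+ EV_Fx_ and 4.75% to 6.14% in the other groups. The GC score therefore differed with treatment as well as between replicates, and a change in RNA quality cannot be told apart from a change in the cells. Reads may also be shared with close copies of a gene: counts were fractional in 17 libraries for Ybx1, 15 for Hnrnpk, 13 for Matr3, 9 for Ptbp1, 5 for Ssb, 1 each for Ro60 and Ybx3, and 0 for Mov10. The pseudogenes Ybx1-ps2 and Matr3-ps2 reached 3.95 and 0.768 normalized CPM. Member values are given as counted and, for the larger shifts and for calls gained or lost, with the trends along transcript length and GC content removed in each library.

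**Figure D1:**
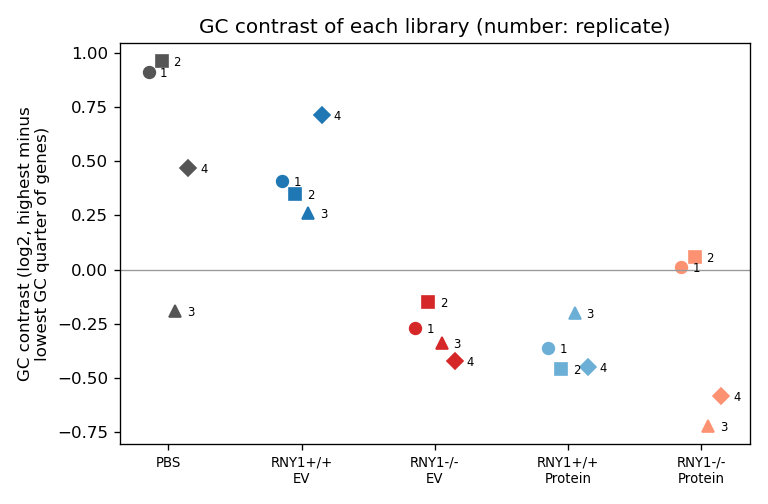
GC contrast (log2, mean of the 25% of genes highest in GC minus that of the lowest 25%) for each library, with 1 point per library numbered by replicate. PBS replicate 3 (−0.19) lay below the other PBS libraries, and RNY1-/- Protein_Fx_ replicates 3 and 4 (−0.72 and −0.58) lay below replicates 1 and 2.

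The members sit at both ends of this axis. Ro60 (37.8% GC), Ssb (38.1%) and Matr3 (38.5%) are among the least GC-rich of all genes, at percentiles 2.63, 3 and 3.77, and Hnrnpk (42.9%) is also in the lowest 25%. Ptbp1 (53.7%), Ybx3 (57.2%) and Mov10 (57.3%) are in the highest 25%, and Ybx1 (52.1%) is just under it. Across all genes the median log2 fold change of the lowest and the highest 25% in GC was 0.03 and −0.12 for RNY1+/+ EV_Fx_ against PBS, and 0.35 and −0.56 for RNY1-/- EV_Fx_ against PBS. These medians were, for RNY1+/+ Protein_Fx_ and RNY1-/- Protein_Fx_ against PBS, 0.36 and −0.58, and 0.31 and −0.52. Between the vesicle fractions, RNY1-/- EV_Fx_ against RNY1+/+ EV_Fx_, they were 0.34 and −0.46, and between the protein fractions −0.03 and 0.08. For RNY1+/+ Protein_Fx_ against RNY1+/+ EV_Fx_ they were 0.37 and −0.49, and for RNY1-/- Protein_Fx_ against RNY1-/- EV_Fx_ −0.03 and 0.06. The difference of donor genotype effects between the fractions gave −0.40 and 0.53.

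The mouse Y RNAs themselves were almost absent, in a protocol that reads poly(A) ends. Rny3 had at most 2 counts in any library and 10.6 in all 20. Rny1 appears under 2 gene identifiers with the same counts, at most 1.5 per library and 6 in all: 0 in PBS, 4.5 in RNY1+/+ EV_Fx_ and 0.5 in each other group. No library passed 3 counts, so no fold change is given.

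edgeR's quasi-likelihood test was applied to each gene, and its p was adjusted over all genes tested by the Benjamini-Hochberg method (edgeR adjusted p), and a gene was called at adjusted p under 0.05. A called gene with an absolute log2 fold change above 1 is a DEG. The 4 comparisons with PBS share the same PBS libraries, so their values stand side by side and are not independent. Comparisons that share the RNY1+/+ EV_Fx_ libraries are likewise not independent of each other, nor are others that share a group. For RNY1+/+ EV_Fx_ against PBS, 4 of 8 members were called, 2 higher and 2 lower with 1 DEG. Of all genes, 44.5% were called, 21.7% higher, 22.8% lower and 16.4% DEGs, so the member count was near the share of all genes. For RNY1-/- EV_Fx_ against PBS, 5 of 8 were called, 3 higher and 2 lower with 0 DEGs, against 58.3% of all genes (27.6% higher, 30.7% lower, 22.5% DEGs). This too was near the share of all genes. Against PBS, RNY1+/+ Protein_Fx_ had 2 of 8 members called, 1 higher and 1 lower with 0 DEGs, below the 55.2% of all genes (25.9% higher, 29.3% lower, 21.3% DEGs). Against PBS, RNY1-/- Protein_Fx_ had 0 of 8 members called by edgeR, 1 had an unadjusted p under 0.05 and DESeq2 called 0. Of all genes 35.7% were called there, 16.7% higher, 19% lower and 14.3% DEGs. With replicate number entered as a block, 3 members were called there, beside 60.9% of all genes. The labels tie no samples together by that number, so neither count is settled. The median absolute log2 fold change of the members was 0.22, 0.48, 0.36 and 0.28 in these 4 comparisons, and that of all genes 0.39, 0.53, 0.51 and 0.42.

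Donor genotype was compared within each fraction. For RNY1-/- EV_Fx_ against RNY1+/+ EV_Fx_, 6 of 8 members were called, 4 higher and 2 lower with 1 DEG. Of all genes 52.1% were called, 25.5% higher, 26.6% lower and 2.35% DEGs. DESeq2 called 7 members and 46.6% of all genes. The fits with length and GC trends removed, with no filter and with all 20 libraries each called 4 members, beside 33.1%, 19.2% and 36.4% of all genes. Between the protein fractions, RNY1-/- Protein_Fx_ against RNY1+/+ Protein_Fx_, 0 of 8 were called by edgeR, 0 had an unadjusted p under 0.05 and DESeq2 called 0, with 5.57% of all genes called (2.20% higher, 3.37% lower, 1.82% DEGs). A count of 0 in 8 is what that share would leave. The fractions were compared within each donor genotype. For RNY1+/+ Protein_Fx_ against RNY1+/+ EV_Fx_, 7 of 8 were called, 4 higher and 3 lower with 0 DEGs, against 63.3% of all genes (31.1% higher, 32.2% lower, 13.5% DEGs). For RNY1-/- Protein_Fx_ against RNY1-/- EV_Fx_, 2 of 8 were called, 1 higher and 1 lower with 0 DEGs, near the 29.2% of all genes (14.6% higher, 14.6% lower, 8.97% DEGs). The genotype by fraction test asks whether the RNY1-/- Protein_Fx_ minus RNY1+/+ Protein_Fx_ difference departs from the RNY1-/- EV_Fx_ minus RNY1+/+ EV_Fx_ difference. It called 2 of 8, 1 positive and 1 negative with 0 DEGs, near the 33.0% of all genes (16.8% positive, 16.2% negative, 7.79% DEGs).

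Several of these counts moved with the GC trends or when PBS replicate 3 or RNY1-/- Protein_Fx_ replicates 3 and 4 were left out. Once length and GC trends were removed, 7 called members of RNY1+/+ Protein_Fx_ against RNY1+/+ EV_Fx_ became 1, while 2 for RNY1+/+ Protein_Fx_ against PBS became 5 and 0 for RNY1-/- Protein_Fx_ against PBS became 3. The shares of all genes called in these 3 fits were 54.8%, 52.7% and 37.4%. Without PBS replicate 3, 5 members were called between RNY1+/+ EV_Fx_ and PBS and 6 between RNY1-/- EV_Fx_ and PBS, while RNY1+/+ Protein_Fx_ had 5 and RNY1-/- Protein_Fx_ had 3. The shares of all genes called rose with them, to 56.2%, 70.5%, 68.7% and 52.9%. Without RNY1-/- Protein_Fx_ replicates 3 and 4, chosen for removal after seeing the data, RNY1-/- Protein_Fx_ against RNY1+/+ Protein_Fx_ had 2 called members, RNY1-/- Protein_Fx_ against RNY1-/- EV_Fx_ 4 and genotype by fraction 5, and RNY1-/- Protein_Fx_ against PBS kept 0. Beside these, 27.7%, 45.3%, 54.3% and 14.3% of all genes were called. Scaling by library totals in place of TMM moved the median log2 fold change of all genes to −0.21, −0.27, −0.20 and −0.10 in the 4 comparisons with PBS, to 0.11 between the protein fractions, to 0.19 for RNY1-/- Protein_Fx_ against RNY1-/- EV_Fx_ and to 0.16 for genotype by fraction.

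**Figure D2:**
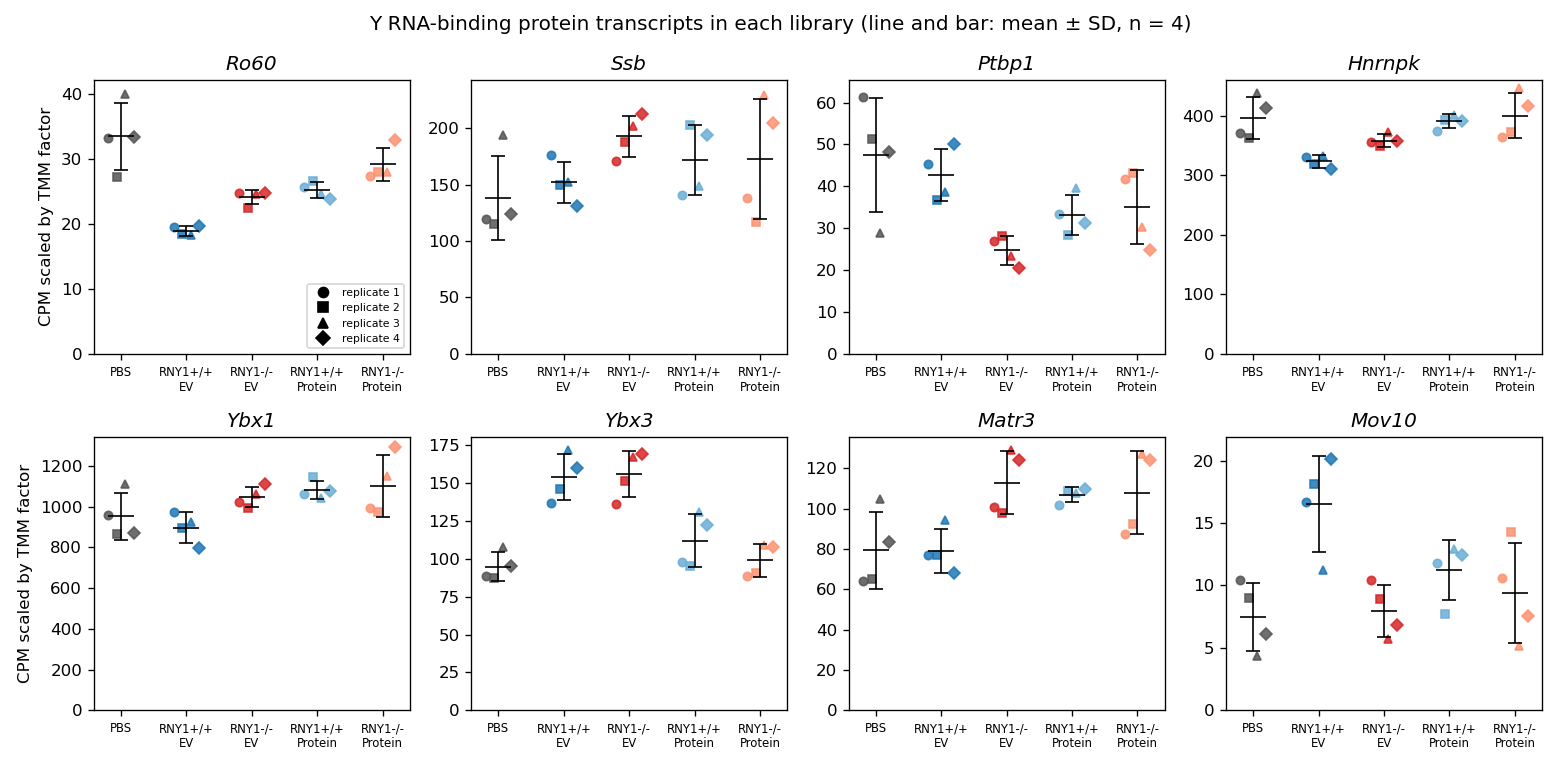
TMM-scaled CPM of the 8 members in each of the 20 libraries, with 1 panel per gene, marker shape for the replicate number, and bars for the group mean ± SD. Ro60 was highest in PBS (mean 33.4) and lowest in RNY1+/+ EV_Fx_ (18.9), while Mov10 was highest in RNY1+/+ EV_Fx_ (16.5).

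Ro60, the ring-shaped protein that holds the Y RNA stem, was the member with the plainest separation of groups. In normalized CPM, replicates 1 to 4 read 33.1, 27.2, 39.9 and 33.3 in PBS and 19.5, 18.4, 18.2 and 19.7 in RNY1+/+ EV_Fx_. They read 24.7, 22.4, 24.6 and 24.7 in RNY1-/- EV_Fx_, and 25.6, 26.6, 24.6 and 23.8 in RNY1+/+ Protein_Fx_. In RNY1-/- Protein_Fx_ they read 27.4, 27.9, 28 and 32.9. PBS was the highest group and RNY1+/+ EV_Fx_ the lowest, and neither RNY1+/+ EV_Fx_, RNY1-/- EV_Fx_ nor RNY1+/+ Protein_Fx_ overlapped PBS, whereas RNY1-/- Protein_Fx_ did. Ro60 fell by 0.79 log2 in RNY1+/+ EV_Fx_ against PBS (edgeR adjusted p = 0.00068), a group mean of 18.9 ± 0.773 against 33.4 ± 5.21. It also fell by 0.45 in RNY1-/- EV_Fx_ (adjusted p = 0.0142) and by 0.37 in RNY1+/+ Protein_Fx_ (adjusted p = 0.0373). In RNY1-/- Protein_Fx_ the difference from PBS was −0.18 with a 95% interval of −0.50 to 0.14 (adjusted p = 0.338).

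Within the vesicle fractions, Ro60 was higher after RNY1-/- EV_Fx_ than after RNY1+/+ EV_Fx_, with no overlap (log2 fold change 0.34, edgeR adjusted p = 0.0072). The RNY1-/- Protein_Fx_ libraries also lay above those of RNY1+/+ Protein_Fx_ without overlap, though this was not called (0.21, 95% interval −0.05 to 0.46, adjusted p = 0.37). RNY1+/+ Protein_Fx_ also exceeded RNY1+/+ EV_Fx_ without overlap (0.42, adjusted p = 0.0019). For Ro60 the genotype by fraction term was −0.14, with a 95% interval of −0.41 to 0.13, not called. With the trends removed it turned to 0.46 (0.11 to 0.81, adjusted p = 0.0572), also not called. All 4 differences of Ro60 from PBS were called with length and GC trends removed: −0.67, −0.85, −0.86 and −0.58 in the order RNY1+/+ EV_Fx_, then RNY1-/- EV_Fx_, then RNY1+/+ Protein_Fx_, then RNY1-/- Protein_Fx_. The same removal turned 2 other called differences and ended their calls, RNY1-/- EV_Fx_ against RNY1+/+ EV_Fx_ (−0.16, adjusted p = 0.221) and RNY1+/+ Protein_Fx_ against RNY1+/+ EV_Fx_ (−0.19, adjusted p = 0.157). Leaving out any 1 library other than PBS replicate 2 ended the Ro60 call for RNY1+/+ Protein_Fx_ against PBS, where values ran from −0.47 to −0.27. DESeq2 (−0.36, adjusted p = 0.0543) and the fit with no filter (adjusted p = 0.0877) ended it too, and no filter also ended RNY1-/- EV_Fx_ against RNY1+/+ EV_Fx_ (adjusted p = 0.0703). RNY1-/- Protein_Fx_ against RNY1-/- EV_Fx_ was 0.26 (adjusted p = 0.0982), called under library totals (0.44, adjusted p = 0.0079). Without PBS replicate 3 the 4 differences from PBS were −0.68, −0.33, −0.27 and −0.09.

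Ssb encodes La, which shields the 3′ uridines of new RNA polymerase III transcripts. Its normalized CPM was 120, 115, 194 and 124 in PBS replicates 1 to 4, 176, 150, 152 and 131 in RNY1+/+ EV_Fx_, and 171, 188, 202 and 213 in RNY1-/- EV_Fx_. The protein fractions gave 141, 203, 149 and 194 in RNY1+/+ Protein_Fx_ and 138, 117, 230 and 205 in RNY1-/- Protein_Fx_. PBS replicate 3 and RNY1-/- Protein_Fx_ replicates 3 and 4 were high for Ssb within their groups, and every group overlapped PBS. Ssb was called in 2 of 9 comparisons. It rose by 0.50 log2 in RNY1-/- EV_Fx_ against PBS (edgeR adjusted p = 0.0235) and was 0.34 higher after RNY1-/- EV_Fx_ than after RNY1+/+ EV_Fx_ (adjusted p = 0.0106). Against PBS the remaining values were 0.17 in RNY1+/+ EV_Fx_ (95% interval −0.22 to 0.55), 0.35 in RNY1+/+ Protein_Fx_ (−0.06 to 0.75) and 0.33 in RNY1-/- Protein_Fx_ (−0.20 to 0.86).

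These Ssb differences moved with the libraries and the GC trends. Without PBS replicate 3, all 4 comparisons with PBS were called for Ssb, at 0.38, 0.73, 0.56 and 0.54 (edgeR adjusted p = 0.0068, 1.5e-05, 0.0011 and 0.0494). The call for RNY1-/- EV_Fx_ against PBS ended without PBS replicate 1, 2 or 4 or RNY1-/- EV_Fx_ replicate 3 or 4, and under library totals (0.26, adjusted p = 0.201). Ssb was called in 0 of 9 comparisons with length and GC trends removed: RNY1-/- EV_Fx_ against PBS read 0.11 (adjusted p = 0.366), and RNY1-/- EV_Fx_ against RNY1+/+ EV_Fx_ turned to −0.01 (adjusted p = 0.934). The call between the vesicle fractions also ended with all 20 libraries in 1 fit (adjusted p = 0.153), where the difference was still 0.34. Without RNY1-/- Protein_Fx_ replicates 3 and 4, RNY1-/- Protein_Fx_ lay below RNY1+/+ Protein_Fx_ by 0.43 log2 for Ssb (adjusted p = 0.041), and the genotype by fraction term was −0.76 (adjusted p = 0.0025).

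Ptbp1 binds pyrimidine-rich RNA and regulates splicing. Replicates 1 to 4 read 61.3, 51.3, 28.9 and 48.1 normalized CPM in PBS, 45.3, 36.7, 38.7 and 50 in RNY1+/+ EV_Fx_, and 27, 28.1, 23.3 and 20.5 in RNY1-/- EV_Fx_. The protein fractions gave 33.3, 28.4, 39.7 and 31.2 in RNY1+/+ Protein_Fx_, and 41.7, 43.1, 30.4 and 24.9 in RNY1-/- Protein_Fx_. All RNY1-/- EV_Fx_ libraries lay below all PBS and all RNY1+/+ EV_Fx_ libraries, and PBS replicate 3 was the lowest of its group. Ptbp1 fell by 0.91 log2 in RNY1-/- EV_Fx_ against PBS (edgeR adjusted p = 0.0026) and was 0.78 lower after RNY1-/- EV_Fx_ than after RNY1+/+ EV_Fx_ (adjusted p = 0.00043). RNY1+/+ EV_Fx_ against PBS was −0.12, with a 95% interval of −0.55 to 0.30, RNY1+/+ Protein_Fx_ was −0.48 (−0.92 to −0.05, adjusted p = 0.0571) and RNY1-/- Protein_Fx_ was −0.40 (−0.94 to 0.13).

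The RNY1+/+ Protein_Fx_ difference of Ptbp1 from PBS was called under library totals (−0.65, adjusted p = 0.0154), with no filter (−0.50, adjusted p = 0.0083) and with all 20 libraries in 1 fit (−0.52, adjusted p = 0.025), and it read −0.22 with length and GC trends removed (adjusted p = 0.166). For the donor genotype difference of Ptbp1, the protein fractions gave 0.11 (95% interval −0.28 to 0.49) where the vesicle fractions gave −0.78. This departure was called in the genotype by fraction test (0.89, edgeR adjusted p = 0.0094), and leaving out each library in turn gave 0.78 to 1.04, called throughout. Without RNY1-/- Protein_Fx_ replicates 3 and 4 the protein fraction difference of Ptbp1 was 0.36 and called (adjusted p = 0.0495), and the term was 1.15 (adjusted p = 8.6e-05). With length and GC trends removed the term was 0.52 (adjusted p = 0.0267), RNY1-/- EV_Fx_ against RNY1+/+ EV_Fx_ was −0.44 (adjusted p = 0.0037) and RNY1-/- EV_Fx_ against PBS −0.64 (adjusted p = 0.0011), so these 3 Ptbp1 calls held. RNY1+/+ Protein_Fx_ was 0.36 lower than RNY1+/+ EV_Fx_ (adjusted p = 0.0189), a call that ended with the trends removed (−0.02) and without RNY1+/+ EV_Fx_ replicate 4 or RNY1+/+ Protein_Fx_ replicate 2 or 4. RNY1-/- Protein_Fx_ was 0.52 higher than RNY1-/- EV_Fx_ (adjusted p = 0.0461), and this call ended without any 1 RNY1-/- EV_Fx_ library or RNY1-/- Protein_Fx_ replicate 1 or 2. The same difference was called with length and GC trends removed (0.48, adjusted p = 0.0087), under library totals (0.70, adjusted p = 0.0188) and with no filter (0.52, adjusted p = 0.0072). In the fit of all 20 libraries, the Ptbp1 calls for RNY1+/+ Protein_Fx_ against RNY1+/+ EV_Fx_ and RNY1-/- Protein_Fx_ against RNY1-/- EV_Fx_ also ended (adjusted p = 0.108 and 0.0518). Their values there were −0.37 and 0.52. Without PBS replicate 3, Ptbp1 was also called in RNY1+/+ Protein_Fx_ (−0.65, adjusted p = 0.00031) and RNY1-/- Protein_Fx_ (−0.57, adjusted p = 0.0252) against PBS.

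Hnrnpk, whose product binds poly(C) stretches, spanned only 0.30 log2 between the highest and lowest group means. Its normalized CPM was 362 to 438 in PBS, 310 to 332 in RNY1+/+ EV_Fx_, 348 to 372 in RNY1-/- EV_Fx_, 374 to 401 in RNY1+/+ Protein_Fx_ and 364 to 446 in RNY1-/- Protein_Fx_. RNY1+/+ EV_Fx_ was the lowest group and overlapped none of the others. Hnrnpk fell by 0.27 log2 in RNY1+/+ EV_Fx_ against PBS (edgeR adjusted p = 0.0458), a call that ended without PBS replicate 4 or any 1 RNY1+/+ EV_Fx_ library and with no filter on low counts (−0.20, adjusted p = 0.315). It was 0.29 higher in RNY1+/+ Protein_Fx_ than in RNY1+/+ EV_Fx_ (adjusted p = 0.0038), which ended with length and GC trends removed (0.05, adjusted p = 0.541) and with no filter (adjusted p = 0.0542). RNY1-/- EV_Fx_ against RNY1+/+ EV_Fx_ was 0.15 (95% interval 0.01 to 0.29, adjusted p = 0.0626; DESeq2 adjusted p = 0.0435). Hnrnpk, with the trends removed, was called lower than PBS in all 4 fraction groups, at −0.48, −0.52, −0.44 and −0.35, where the values as counted were −0.27, −0.13, 0.01 and 0.03. The direction in RNY1+/+ Protein_Fx_ and RNY1-/- Protein_Fx_ against PBS thus turned with the trends. Library totals called Hnrnpk in RNY1-/- EV_Fx_ against PBS (−0.37, adjusted p = 0.0083) and in RNY1-/- Protein_Fx_ against RNY1-/- EV_Fx_ (0.32, adjusted p = 0.0131).

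The cold shock domain proteins Ybx1 and Ybx3 bind single-stranded RNA and mRNA. Their calls as counted differed, but no test compared these 2 genes. With length and GC trends removed, both were called higher in RNY1-/- EV_Fx_ and RNY1+/+ Protein_Fx_ against PBS, and in RNY1-/- EV_Fx_ against RNY1+/+ EV_Fx_. The other calls on that scale were not shared. For Ybx1, replicates ran from 868 to 1111 normalized CPM in PBS, 795 to 975 in RNY1+/+ EV_Fx_, 994 to 1110 in RNY1-/- EV_Fx_, 1045 to 1144 in RNY1+/+ Protein_Fx_ and 972 to 1295 in RNY1-/- Protein_Fx_. All 4 RNY1+/+ EV_Fx_ libraries lay below all RNY1-/- EV_Fx_ and all RNY1+/+ Protein_Fx_ libraries. Ybx1 was 0.22 log2 higher after RNY1-/- EV_Fx_ than after RNY1+/+ EV_Fx_ (edgeR adjusted p = 0.0272) and 0.29 higher after RNY1+/+ Protein_Fx_ than after RNY1+/+ EV_Fx_ (adjusted p = 0.0096). The first call ended without RNY1+/+ EV_Fx_ replicate 2 or 4 or RNY1-/- EV_Fx_ replicate 3 or 4, under library totals (0.15, adjusted p = 0.0952), with no filter (adjusted p = 0.138) and with all 20 libraries in 1 fit (adjusted p = 0.0871). The second ended with no filter (adjusted p = 0.0633). With length and GC trends removed these 2 differences were larger, at 0.47 (adjusted p = 0.0016) and 0.53 (adjusted p = 0.00019). None of the 4 differences of Ybx1 from PBS was called: −0.06 (95% interval −0.32 to 0.19), 0.16 (−0.09 to 0.40), 0.22 (−0.03 to 0.46) and 0.23 (−0.07 to 0.52) in the order RNY1+/+ EV_Fx_, then RNY1-/- EV_Fx_, then RNY1+/+ Protein_Fx_, then RNY1-/- Protein_Fx_. With length and GC trends removed, RNY1-/- EV_Fx_ and RNY1+/+ Protein_Fx_ against PBS read 0.39 (adjusted p = 0.0448) and 0.44 (adjusted p = 0.0268), and without PBS replicate 3 they were called as counted, at 0.26 (adjusted p = 0.0123) and 0.30 (adjusted p = 0.0087). Without RNY1-/- Protein_Fx_ replicates 3 and 4 the genotype by fraction term of Ybx1 was called (−0.35, adjusted p = 0.0186).

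Ybx3 separated the vesicle fractions from PBS. Its normalized CPM in replicates 1 to 4 was 88.8, 87.2, 108 and 95.1 in PBS, 137, 146, 172 and 160 in RNY1+/+ EV_Fx_, and 136, 151, 167 and 169 in RNY1-/- EV_Fx_. The protein fractions gave 98.2, 95, 131 and 122 in RNY1+/+ Protein_Fx_, and 88.4, 90.6, 109 and 108 in RNY1-/- Protein_Fx_. Every library of both vesicle groups lay above every PBS library, while both protein groups overlapped PBS. Ybx3 rose by 0.72 log2 in RNY1+/+ EV_Fx_ (edgeR adjusted p = 0.0004) and by 0.73 in RNY1-/- EV_Fx_ (adjusted p = 0.00028), and 0 libraries left out ended either call. In RNY1+/+ Protein_Fx_ the difference from PBS was 0.27 (95% interval −0.03 to 0.56, adjusted p = 0.109) and in RNY1-/- Protein_Fx_ 0.08 (−0.20 to 0.35, adjusted p = 0.642).

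Tested directly, Ybx3 was lower after the protein than after the vesicle fraction of either donor genotype: −0.45 for RNY1+/+ Protein_Fx_ against RNY1+/+ EV_Fx_ (edgeR adjusted p = 0.0026) and −0.66 for RNY1-/- Protein_Fx_ against RNY1-/- EV_Fx_ (adjusted p = 0.00074), without overlap. Donor genotype gave 0.02 in the vesicle fraction (95% interval −0.18 to 0.22) and −0.18 in the protein fraction (−0.46 to 0.10), with a genotype by fraction term of −0.20 (−0.54 to 0.14) that became −0.68 with length and GC trends removed and was then called (adjusted p = 0.0353). With length and GC trends removed, the calls of Ybx3 against PBS stayed, at 0.67 for RNY1+/+ EV_Fx_ (adjusted p = 0.0219) and 1.19 for RNY1-/- EV_Fx_ (adjusted p = 0.00056), and RNY1+/+ Protein_Fx_ was added at 0.72 (adjusted p = 0.0137). RNY1+/+ Protein_Fx_ against RNY1+/+ EV_Fx_ turned to 0.06 and its call ended (adjusted p = 0.685), RNY1-/- Protein_Fx_ against RNY1-/- EV_Fx_ stayed (−0.65, adjusted p = 0.0084), and RNY1-/- EV_Fx_ against RNY1+/+ EV_Fx_ became 0.51 (adjusted p = 0.004). The rise of Ybx3 after both vesicle fractions and its lower level in RNY1-/- Protein_Fx_ than in RNY1-/- EV_Fx_ were thus called on both scales, whereas the values that set RNY1+/+ EV_Fx_ beside RNY1-/- EV_Fx_ or RNY1+/+ Protein_Fx_ were not. Without PBS replicate 3, Ybx3 was called in RNY1+/+ Protein_Fx_ against PBS as counted (0.34, adjusted p = 0.0184). For RNY1-/- Protein_Fx_ against PBS, 0.08 as counted became 0.53 with the trends removed (adjusted p = 0.127), not called. With the trends removed it was called without PBS replicate 3 (0.82, adjusted p = 0.0048) and with replicate number as a block (0.59, adjusted p = 2.0e-05).

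Matr3, a nuclear matrix protein that binds pyrimidine-rich RNA, gave 64.4, 65, 105 and 83.6 normalized CPM in PBS replicates 1 to 4 and 77, 77, 94.2 and 68 in RNY1+/+ EV_Fx_. It gave 101, 97.9, 129 and 124 in RNY1-/- EV_Fx_, 102, 109, 108 and 110 in RNY1+/+ Protein_Fx_, and 87.3, 92.4, 127 and 124 in RNY1-/- Protein_Fx_. RNY1+/+ EV_Fx_ lay wholly below RNY1-/- EV_Fx_ and RNY1+/+ Protein_Fx_, and PBS overlapped every group, though RNY1-/- EV_Fx_, RNY1+/+ Protein_Fx_ and RNY1-/- Protein_Fx_ only through its replicate 3. Matr3 rose by 0.53 log2 in RNY1-/- EV_Fx_ (edgeR adjusted p = 0.0203) and by 0.47 in RNY1+/+ Protein_Fx_ (adjusted p = 0.0242) against PBS, with 0.02 in RNY1+/+ EV_Fx_ (95% interval −0.36 to 0.40) and 0.45 in RNY1-/- Protein_Fx_ (0.03 to 0.88, adjusted p = 0.0852). It was 0.52 higher after RNY1-/- EV_Fx_ than after RNY1+/+ EV_Fx_ (adjusted p = 0.0026) and 0.46 higher after RNY1+/+ Protein_Fx_ than after RNY1+/+ EV_Fx_ (adjusted p = 0.00079). Its genotype by fraction term was −0.53 (adjusted p = 0.0337), from 0.52 in the vesicle fraction and −0.01 in the protein fraction (95% interval −0.28 to 0.27).

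All 5 of these Matr3 calls ended when length and GC trends were removed. RNY1-/- EV_Fx_ and RNY1+/+ Protein_Fx_ against PBS then read 0.12 and −0.02 (edgeR adjusted p = 0.3 and 0.833), RNY1-/- EV_Fx_ and RNY1+/+ Protein_Fx_ against RNY1+/+ EV_Fx_ 0.07 and −0.07 (adjusted p = 0.595 and 0.479), and genotype by fraction −0.03 (adjusted p = 0.881). Among single libraries, PBS replicate 1 or 2 or RNY1-/- EV_Fx_ replicate 3 or 4 ended the RNY1-/- EV_Fx_ against PBS call, and PBS replicate 1 or 2 or RNY1+/+ Protein_Fx_ replicate 2 or 4 ended the RNY1+/+ Protein_Fx_ against PBS call. The genotype by fraction call for Matr3 ended in 9 of the 16 fits that left out 1 library, with values from −0.62 to −0.43, with no filter (adjusted p = 0.0625) and with all 20 libraries in 1 fit (adjusted p = 0.0834). Without RNY1-/- Protein_Fx_ replicates 3 and 4 it was called, at −0.76 (adjusted p = 0.00086). Library totals ended 3 of the Matr3 calls, RNY1-/- EV_Fx_ against PBS (0.29, adjusted p = 0.166), RNY1+/+ Protein_Fx_ against PBS (0.30, adjusted p = 0.123) and genotype by fraction (−0.37, adjusted p = 0.0846). For RNY1-/- Protein_Fx_ against PBS, Matr3 was called with no filter (adjusted p = 0.0268) and with all 20 libraries in 1 fit (adjusted p = 0.0235). Without PBS replicate 3, Matr3 was called in RNY1-/- EV_Fx_, RNY1+/+ Protein_Fx_ and RNY1-/- Protein_Fx_ against PBS, at 0.71, 0.63 and 0.61 (adjusted p = 0.00032, 0.00011 and 0.0112).

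Mov10, an RNA helicase known for its part in RNA silencing and antiviral defense, held both DEGs among the members as counted and had low counts (13 to 162 per library). Its normalized CPM in replicates 1 to 4 was 10.4, 8.96, 4.37 and 6.13 in PBS, 16.7, 18.1, 11.2 and 20.1 in RNY1+/+ EV_Fx_, and 10.4, 8.94, 5.75 and 6.83 in RNY1-/- EV_Fx_. The protein fractions gave 11.8, 7.68, 12.9 and 12.4 in RNY1+/+ Protein_Fx_ and 10.6, 14.3, 5.13 and 7.52 in RNY1-/- Protein_Fx_. All RNY1+/+ EV_Fx_ libraries lay above all PBS and all RNY1-/- EV_Fx_ libraries, and the other groups overlapped PBS. Mov10 rose by 1.17 log2 in RNY1+/+ EV_Fx_ against PBS (edgeR adjusted p = 0.003) and was 1.03 lower after RNY1-/- EV_Fx_ than after RNY1+/+ EV_Fx_ (adjusted p = 0.0012). RNY1-/- EV_Fx_ against PBS was 0.14 (95% interval −0.46 to 0.74), RNY1+/+ Protein_Fx_ 0.62 (0.05 to 1.19, adjusted p = 0.0632) and RNY1-/- Protein_Fx_ 0.41 (−0.32 to 1.14). The RNY1+/+ Protein_Fx_ difference was called with no filter (0.61, adjusted p = 0.0356) and without PBS replicate 1 or RNY1+/+ Protein_Fx_ replicate 2. Leaving out each library in turn ended neither call of the 2 DEGs, with values of 1.02 to 1.35 and −1.19 to −0.94, but RNY1-/- EV_Fx_ against RNY1+/+ EV_Fx_ was no longer a DEG without RNY1+/+ EV_Fx_ replicate 4 or RNY1-/- EV_Fx_ replicate 3 or 4, and lay at the DEG limit without RNY1+/+ EV_Fx_ replicate 2. Under library totals RNY1+/+ EV_Fx_ against PBS read 1.00 and was not a DEG.

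With length and GC trends removed, the rise of Mov10 in RNY1+/+ EV_Fx_ stayed at 1.18 (edgeR adjusted p = 6.6e-05), and RNY1-/- EV_Fx_ against RNY1+/+ EV_Fx_ was reduced to −0.55 (adjusted p = 0.0186), still called and no longer a DEG. The other fractions were then also called above PBS, RNY1-/- EV_Fx_ at 0.63 (adjusted p = 0.0132), RNY1-/- Protein_Fx_ at 0.87 (adjusted p = 0.007) and RNY1+/+ Protein_Fx_ at a fold change of 2.14, with a 95% interval of 0.70 to 1.49 in log2 (adjusted p = 0.00027). RNY1+/+ Protein_Fx_ was 0.55 lower than RNY1+/+ EV_Fx_ as counted (adjusted p = 0.0162), which ended with the trends removed (−0.06, adjusted p = 0.75), without RNY1+/+ EV_Fx_ replicate 4 or RNY1+/+ Protein_Fx_ replicate 2, and with all 20 libraries in 1 fit (adjusted p = 0.0708). The genotype by fraction term of Mov10 was 0.88 (95% interval 0.14 to 1.61, adjusted p = 0.0606), not called. It was 0.35 (adjusted p = 0.355) with the trends removed and was called without RNY1-/- Protein_Fx_ replicates 3 and 4 (1.20, adjusted p = 0.0035), under library totals (1.05, adjusted p = 0.0362) and with no filter (0.97, adjusted p = 0.0026). Leaving out RNY1+/+ EV_Fx_ replicate 3, RNY1-/- EV_Fx_ replicate 1 or RNY1-/- Protein_Fx_ replicate 3 or 4 also brought its call, and the 16 such fits gave 0.58 to 1.04. Donor genotype in the protein fraction gave −0.16 (95% interval −0.73 to 0.41).

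**Figure D3:**
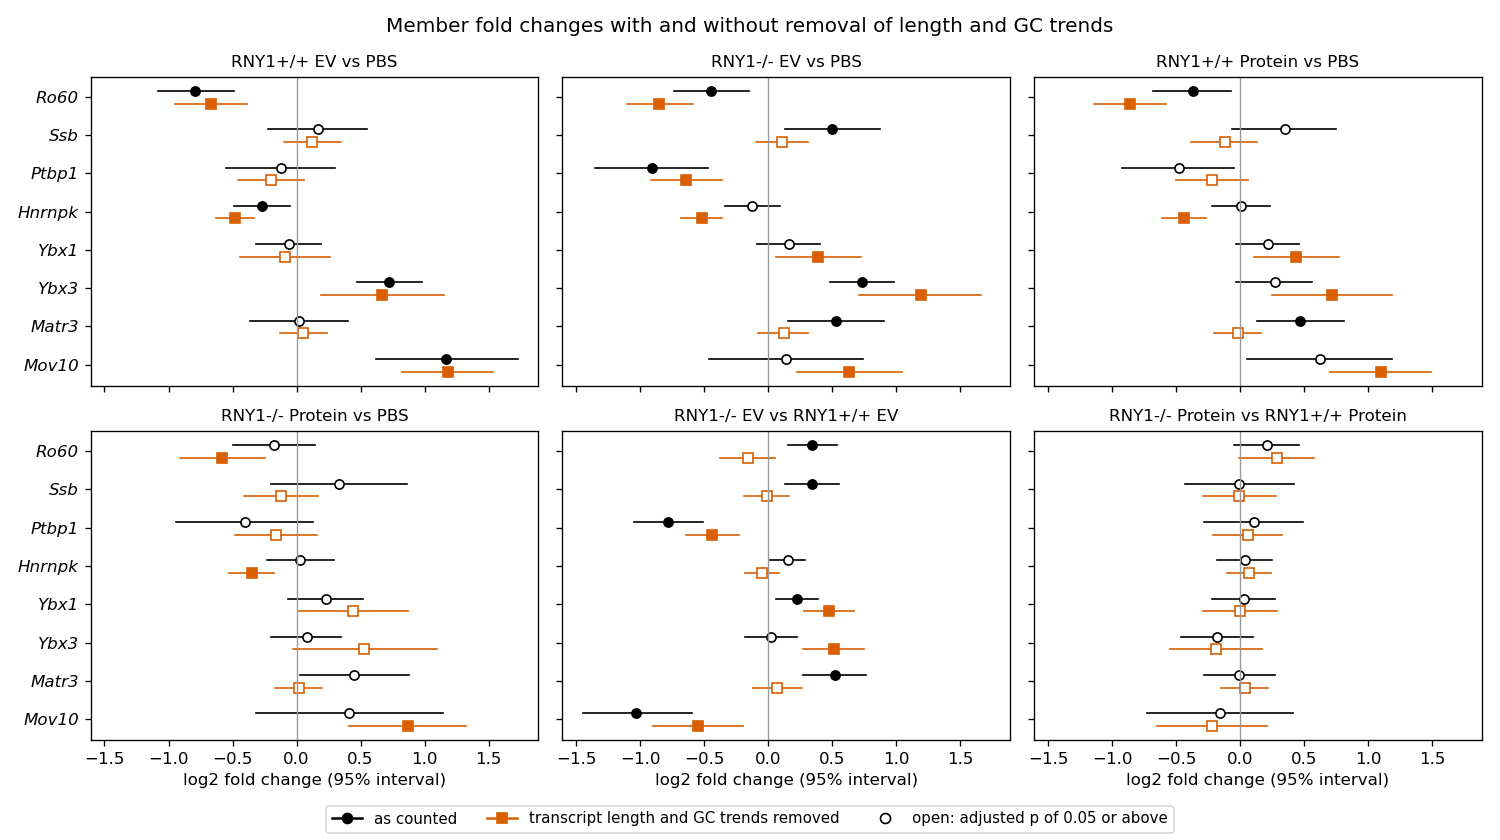
Log2 fold change with 95% interval of the 8 members in 6 comparisons, as counted (circles) and with length and GC trends removed (squares), open where the adjusted p is 0.05 or more. Mov10 in RNY1+/+ EV_Fx_ against PBS read 1.17 and 1.18, whereas Matr3 in RNY1-/- EV_Fx_ against RNY1+/+ EV_Fx_ went from 0.52 to 0.07.

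Across the 5 group means, member profiles as counted were compared by the root-mean-square difference of their centered log2 levels. The smallest differences between members were Hnrnpk with Ybx1 (0.09) and Ssb with Matr3 (0.11), and the largest was Ro60 with Mov10 (0.65). Hnrnpk and Ybx1 spanned only 0.30 and 0.29 log2, and Ssb and Matr3 are both GC-poor (percentiles 3 and 3.77). Likeness with length and GC trends removed was not tested. Of 7538 genes averaging at least 10 normalized CPM, those nearest to Ro60 by this measure over 5 groups were Tmem260 (0.019), Ddx3x (0.028) and Elmo2 (0.046). Nearest to Ssb were Eif4a2 (0.013), Rfx7 (0.022) and Mob4 (0.024), and to Matr3 Ltn1 (0.012), Ccnt2 (0.014) and Armc8 (0.017). Ptbp1 was nearest to Ddx41 (0.040), Plod3 (0.056) and Pes1 (0.058), and Ybx3 to Gm13835 (0.034), Acaca (0.036) and Yrdc (0.037). Mov10 had Trafd1 (0.105), Ifi35 (0.106) and Lrrc25 (0.117) nearest, farther off than those of the 5 other members compared. Hnrnpk and Ybx1, whose group means spanned less than 0.5 log2, were not compared with other genes. Over only 5 groups such nearness is easily met by chance.

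Beyond the 8 members, 68 genes in 5 lists cover other Y RNA-associated proteins, relatives of the members and the making, trimming and export of Y RNAs. Of 13 other reported Y RNA-associated proteins 11 were tested against PBS. The counts called higher and lower were 5 and 1 in RNY1+/+ EV_Fx_, 5 and 3 in RNY1-/- EV_Fx_, 4 and 4 in RNY1+/+ Protein_Fx_, and 3 and 3 in RNY1-/- Protein_Fx_, where 44.5%, 58.3%, 55.2% and 35.7% of all genes were called. Once length and GC trends were removed they were 5 and 1, 4 and 2, 2 and 3, and 2 and 3, where 52.5%, 57.6%, 52.7% and 37.4% of all genes were called. Igf2bp2, an mRNA-stabilizing protein, averaged 41.7 ± 10.6 normalized CPM in PBS and 202 ± 16.5, 227 ± 11.7, 169 ± 27.2 and 100 ± 17.6 in RNY1+/+ EV_Fx_ and RNY1-/- EV_Fx_, then RNY1+/+ Protein_Fx_ and RNY1-/- Protein_Fx_. It rose by 2.31, 2.47, 2.05 and 1.28 log2 (edgeR adjusted p = 1.1e-06, 4.3e-07, 3.5e-06 and 0.00069). Igf2bp2 was 0.76 lower after RNY1-/- Protein_Fx_ than after RNY1+/+ Protein_Fx_ (adjusted p = 0.0084), with a genotype by fraction term of −0.94 (adjusted p = 0.0025).

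Apobec3, which deaminates cytosines in viral DNA, rose by 1.11, 0.77, 1.16 and 1.28 log2 in RNY1+/+ EV_Fx_ and RNY1-/- EV_Fx_, then RNY1+/+ Protein_Fx_ and RNY1-/- Protein_Fx_ against PBS (edgeR adjusted p = 0.00012, 0.00074, 2.8e-05 and 0.00015). The chaperone gene Calr was 0.83 lower after RNY1-/- EV_Fx_ than after RNY1+/+ EV_Fx_ (adjusted p = 0.00059). It was lower after RNY1+/+ Protein_Fx_ than after RNY1+/+ EV_Fx_ as well, at 62.6 ± 11.4 against 135 ± 31.6 normalized CPM (adjusted p = 1.9e-05). Calr also fell against PBS in RNY1+/+ Protein_Fx_ (−0.80, adjusted p = 0.0123) and RNY1-/- Protein_Fx_ (−0.76, adjusted p = 0.0297). The call in RNY1-/- Protein_Fx_ ended without PBS replicate 1 or 2 or RNY1-/- Protein_Fx_ replicate 1, 3 or 4. Sympk, a scaffold of 3′ end formation, fell by 1.07, 1.12 and 1.16 in RNY1-/- EV_Fx_, RNY1+/+ Protein_Fx_ and RNY1-/- Protein_Fx_ against PBS (adjusted p = 0.0188, 0.0195 and 0.0421). All 3 Sympk calls ended with length and GC trends removed, at −0.63, −0.69 and −0.76 (adjusted p = 0.0758, 0.0599 and 0.0808), and each ended without PBS replicate 1 or 2. RNY1-/- EV_Fx_ replicate 1, RNY1+/+ Protein_Fx_ replicate 1 or 2 and RNY1-/- Protein_Fx_ replicate 1, 3 or 4 also ended the Sympk call of their own group.

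Among 17 relatives of the members, 11 were tested. The counts called higher and lower than PBS were 3 and 2 in RNY1+/+ EV_Fx_, 7 and 2 in RNY1-/- EV_Fx_, 6 and 0 in RNY1+/+ Protein_Fx_, and 4 and 0 in RNY1-/- Protein_Fx_, beside 44.5%, 58.3%, 55.2% and 35.7% of all genes called. Removal of the length and GC trends gave 5 and 2, 5 and 1, 4 and 0, and 2 and 1, beside 52.5%, 57.6%, 52.7% and 37.4% of all genes. Ptbp3, the Ptbp1 relative of blood cells, rose by 0.38, 0.95 and 0.59 log2 in RNY1-/- EV_Fx_, RNY1+/+ Protein_Fx_ and RNY1-/- Protein_Fx_ (edgeR adjusted p = 0.0177, 8.8e-05 and 0.0141). With length and GC trends removed these read −0.04, 0.45 and 0.15, and only RNY1+/+ Protein_Fx_ was still called (adjusted p = 0.0014). Leaving out PBS replicate 2 also ended the Ptbp3 call in RNY1-/- Protein_Fx_.

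Of the 12 genes for Y RNA 3′ end processing and decay, all 12 were tested. The counts called higher and lower than PBS were 4 and 0 in RNY1+/+ EV_Fx_, 6 and 2 in RNY1-/- EV_Fx_, 5 and 2 in RNY1+/+ Protein_Fx_, and 3 and 0 in RNY1-/- Protein_Fx_, or 5 and 0, 4 and 3, 4 and 3, and 2 and 1 with length and GC trends removed. The shares of all genes called, for this and the next list, were 44.5%, 58.3%, 55.2% and 35.7%, and 52.5%, 57.6%, 52.7% and 37.4% with the trends removed. Tent4a, a poly(A) polymerase, rose after every fraction by 1.24, 1.15, 1.59 and 1.17 log2 (edgeR adjusted p = 9.0e-06, 8.7e-05, 9.1e-07 and 9.8e-05). For the 24 genes of RNA polymerase III and its promoter factors, these counts were 5 and 3, 5 and 4, 6 and 4, and 1 and 2. They were 6 and 6, 5 and 7, 3 and 8, and 1 and 4 with the trends removed. The median log2 fold change of this list was 0.06, 0.05, −0.01 and 0.07 as counted. Maf1, a repressor of RNA polymerase III, fell by 0.84, 1.65, 1.55 and 1.24 (adjusted p = 0.021, 0.00025, 0.00049 and 0.0099), and by 0.80, 1.14, 1.04 and 0.76 with length and GC trends removed. The Maf1 call in RNY1+/+ EV_Fx_ ended without PBS replicate 1 or 2 or RNY1+/+ EV_Fx_ replicate 1, 2 or 3. Polr3gl fell by 1.04, 1.30 and 0.90 in RNY1+/+ EV_Fx_, RNY1-/- EV_Fx_ and RNY1+/+ Protein_Fx_ (adjusted p = 0.0003, 0.00023 and 0.0015), with −0.50 in RNY1-/- Protein_Fx_ (adjusted p = 0.0545). Polr3d rose by 0.69, 1.09 and 0.63 in the same 3 groups (adjusted p = 0.0072, 0.00029 and 0.0263), with 0.58 in RNY1-/- Protein_Fx_ (adjusted p = 0.0966). The Polr3d call in RNY1+/+ Protein_Fx_ ended without PBS replicate 1 or 4 or RNY1+/+ Protein_Fx_ replicate 1 or 4. With length and GC trends removed, Polr3d was called after every fraction, at 0.64, 1.45, 1.00 and 0.91 (adjusted p = 0.0219, 9.6e-05, 0.0041 and 0.0477).

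Of the 2 export genes, Ran rose in RNY1+/+ EV_Fx_ (0.62, edgeR adjusted p = 0.00012) and RNY1-/- EV_Fx_ (0.46, adjusted p = 0.0014) and was lower after the protein than after the vesicle fraction of either donor genotype. Those differences were −0.71 for RNY1+/+ Protein_Fx_ against RNY1+/+ EV_Fx_ (adjusted p = 2.8e-06) and −0.73 for RNY1-/- Protein_Fx_ against RNY1-/- EV_Fx_ (adjusted p = 8.1e-05). Xpo5 was called in 0 of 9 comparisons. The cause of any of these differences was not tested.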

How the data were processed

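RNA of 20 BMDM cultures (5 groups of 4) was sequenced from the 3′ poly(A) end. The authors used FastQC 0.12.1, fastp 0.24.0, STAR 2.7.11, SAMtools 1.22.1, UMIcollapse (to remove duplicates), MultiQC 1.32 and featureCounts (Subread 2.1.1) on GRCm39. The deposited counts are expected counts, as fractional assignment of multi-mapping reads makes them, and the deposited CPM table was used only to check them. Counts were rounded and fitted with edgeR 4.0.16 in R 4.3.3: filterByExpr, mean CPM of at least 3, TMM, quasi-likelihood tests within each pair of groups, Benjamini-Hochberg adjustment. Normalized CPM is the CPM of the TMM-scaled library total. DESeq2 1.42.0, library totals, no filter, all 20 libraries in 1 fit, replicate number as a block, removal of length and GC trends (GENCODE M21) and leaving out each library were alternatives. Length and GC content were those of the longest GENCODE M21 transcript of each gene, not of the 3′ ends that were read. Tables were made with Python 3.11.15. The main edgeR fit and DESeq2 were tested on simulated data that held no GC trend and no outlying library. The other alternatives were not tested in this way. Library totals were 2510005 to 8277366 counts (median 5456425), and members had 13 to 7517 counts per library. The 95% intervals give the precision. Genes named from lists were DEGs in a pairwise comparison, or else the 2 with the lowest adjusted p. Members and lists were chosen with earlier results of these data known. Removing RNY1-/- Protein_Fx_ replicates 3 and 4, or PBS replicate 3 together with the trends, was chosen after seeing the data. Some genes and sequences withheld for evaluation are not reported here.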

Additional observations from a re-analysis of the deposited data

Results flagged for a closer look

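In 50 groups of 4 values examined (8 members, the total count and the GC contrast, in 5 groups), a value was picked out by Dixon's test, in which its gap to the nearest other value is taken as a share of the range. Chance picks out about 1 in 20 such groups. It picked out Ro60 in RNY1-/- EV_Fx_ replicate 2 (22.4 normalized CPM, share 0.957, below its group), Ro60 in RNY1-/- Protein_Fx_ replicate 4 (32.9, share 0.891, above its group) and Ssb in PBS replicate 3 (194, share 0.886, above its group). The total count of RNY1+/+ EV_Fx_ replicate 3 (4994483, share 0.835) was also picked out. The genotype by fraction terms of Ptbp1 (0.89) and Matr3 (−0.53) drew attention because the donor genotype difference departed between the fractions.

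For Ssb in PBS replicate 3, that library also had the lowest GC contrast of its group (−0.19 against 0.47 to 0.96), and Ssb is at GC percentile 3. A technical loss of GC-rich ends and a different state of these cells were not told apart. For Matr3 the term became −0.03 with length and GC trends removed, and for Ptbp1 it was 0.52 (adjusted p = 0.0267). The cause was not tested.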

How the results depend on the processing

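Of 72 member log2 fold changes, 70 kept their call or lack of it, with no change of sign where called in either fit, under DESeq2, 62 under library totals, 61 with no filter, 64 with all 20 libraries in 1 fit and 47 with length and GC trends removed. The sign changed in 0, 12, 4, 2 and 16 of them, of which 8 were called in either fit, all with trends removed. Library totals of 2510005 to 8277366 counts limit what is seen of genes such as Mov10 (13 to 162 counts), Rny1 and Rny3. The cause was not tested for any value below.

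Called members are followed in brackets by the share of all genes called in the same fit. Called members for RNY1+/+ Protein_Fx_ against PBS were 2 (55.2%), and 1 with DESeq2 (53.6%), 3 with no filter (24.3%), 3 with all 20 libraries (61.2%), 5 with trends removed (52.7%), 6 with trends removed and without PBS replicate 3 (60.6%), and 0 to 5 leaving out 1 library (45.0% to 68.7%). RNY1-/- Protein_Fx_ against PBS had 0 (35.7%), and 1 with no filter (17.3%), 1 with all 20 libraries (52.1%), 3 with trends removed (37.4%), 5 with trends removed and without PBS replicate 3 (45.6%), and 0 to 3 leaving out 1 library (22.3% to 52.9%). For RNY1-/- EV_Fx_ against PBS, 5 (58.3%) became 3 to 6 leaving out 1 library (50.2% to 70.5%). For RNY1-/- Protein_Fx_ against RNY1+/+ Protein_Fx_, 0 (5.57%) became 2 without RNY1-/- Protein_Fx_ replicates 3 and 4 (27.7%). RNY1+/+ Protein_Fx_ against RNY1+/+ EV_Fx_ had 7 (63.3%), which became 1 with trends removed (54.8%), 5 with no filter (27%), 5 with all 20 libraries (55.5%) and 5 to 7 leaving out 1 library (57.3% to 62.5%). Between RNY1-/- Protein_Fx_ and RNY1-/- EV_Fx_, 2 (29.2%) became 4 with library totals (33.4%), 1 with all 20 libraries (30.7%), 4 without RNY1-/- Protein_Fx_ replicates 3 and 4 (45.3%), and 1 to 2 leaving out 1 library (22.6% to 32.4%). For genotype by fraction, 2 (33.0%) became 1 with all 20 libraries (19%), 5 without RNY1-/- Protein_Fx_ replicates 3 and 4 (54.3%), and 1 to 3 leaving out 1 library (18.4% to 44.4%). Leaving out 1 library gave 3 to 5 for RNY1+/+ EV_Fx_ against PBS (36.2% to 56.2%; 4 and 44.5% in full) and 5 to 6 for RNY1-/- EV_Fx_ against RNY1+/+ EV_Fx_ (42.1% to 51.5%; 6 and 52.1% in full). That last count was 7 with DESeq2 (46.6%), 4 with trends removed (33.1%), 4 with no filter (19.2%) and 4 with all 20 libraries (36.4%).

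The labels tie no samples together by replicate number. After group means were removed, 40 pairs of libraries with the same number in different groups had a median correlation of 0.11 (−0.39 to 0.64) with 21 above 0.1, and 10 of 20 libraries correlated best with their own number. With the replicate block, RNY1+/+ Protein_Fx_ against PBS had 1 called member (2 without; 47.7% of all genes) and RNY1-/- Protein_Fx_ against PBS 3 (0 without; 60.9% of all genes). It ended the calls of Ro60 in RNY1+/+ Protein_Fx_ (adjusted p = 0.0872) and of Hnrnpk in RNY1+/+ EV_Fx_ (adjusted p = 0.0672, leaving 3 of 4) and called Ssb (0.0149), Ptbp1 (0.012) and Matr3 (0.00028) in RNY1-/- Protein_Fx_, all against PBS. Block and trend removal together gave 5 for RNY1+/+ Protein_Fx_ against PBS (48.5%), 5 for RNY1-/- Protein_Fx_ against PBS (52.2%) and 1 for RNY1+/+ Protein_Fx_ against RNY1+/+ EV_Fx_ (54.9%). A call lost under the replicate block is not a weaker effect.

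Values that changed sign and were called in either fit are given with trends removed, the same to 2 decimals with the replicate block added, and then without PBS replicate 3 with trends removed. In RNY1-/- EV_Fx_ against PBS, Ptbp3 read −0.04 and −0.10 (0.38 as counted). In RNY1+/+ Protein_Fx_ against PBS, Hnrnpk read −0.44 and −0.46 (0.01) and Matr3 −0.02 and −0.04 (0.47). In RNY1-/- Protein_Fx_ against PBS, Hnrnpk read −0.35 and −0.36 (0.03). In RNY1-/- EV_Fx_ against RNY1+/+ EV_Fx_, with trends removed, Ro60 read −0.16 (0.34), Ssb −0.01 (0.34) and Ptbp3 −0.06 (0.39), and with block and trends Tent4a read 0.26 (−0.07). In RNY1+/+ Protein_Fx_ against RNY1+/+ EV_Fx_, with trends removed, Ro60 read −0.19 (0.42), Ybx3 0.06 (−0.45) and Matr3 −0.07 (0.46). Those called in neither fit were, with trends removed, Ro60 genotype by fraction 0.46 (−0.14), Ssb −0.12 (0.35) in RNY1+/+ Protein_Fx_ and −0.12 (0.33) in RNY1-/- Protein_Fx_ against PBS, −0.24 (0.19) in RNY1+/+ Protein_Fx_ against RNY1+/+ EV_Fx_ and 0.02 (−0.35) in genotype by fraction. Hnrnpk read −0.05 (0.15) in RNY1-/- EV_Fx_ against RNY1+/+ EV_Fx_ and 0.13 (−0.12) in genotype by fraction, and Matr3 0.04 (−0.01) in RNY1-/- Protein_Fx_ against RNY1+/+ Protein_Fx_.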
